A study of Mus musculus with 16 samples.

Results

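The genes described are 10 that carry or run the oxidant defence controlled by NRF2: Nfe2l2, Nqo1, Hmox1, Gclc, Gclm, Slc7a11, Gsr, Gpx2, Txnrd1 and Srxn1. They were taken by symbol from the table of 24091 genes, and all 10 were found. RNA came from epithelial cells of the caecum of C57BL/6 mice, an inbred laboratory strain, in 3 groups of 3 libraries. All mice drank Splenda, a sweetener serving as the vehicle, at 10 g/L, and 2 of the groups also received ampicillin, an antibiotic, at 1 g/L. After 7 days the vehicle group and 1 ampicillin group were gavaged with 25% glycerol (mock). The other ampicillin group was gavaged with tributyrin, a glycerol ester that releases butyrate, and tissue was taken 6 h later. No group received tributyrin without ampicillin. Whether replicate libraries stand for different mice is not in the labels, and the spread between them may therefore be technical. Age and sex were not stated.

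NRF2, the protein of Nfe2l2, is a transcription factor that is kept low because KEAP1 hands it to a CUL3 ubiquitin ligase. Oxidants and electrophiles modify KEAP1, NRF2 then accumulates, pairs with small MAF proteins and binds antioxidant response elements in DNA. Its targets make glutathione, recycle glutathione and thioredoxin, and remove quinones, haem and peroxides. Control acts largely on the protein, so the Nfe2l2 transcript is not a readout of NRF2 activity. In the large intestine the epithelium meets dietary and microbial oxidants, and Gpx2 is its characteristic glutathione peroxidase.

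The sequence upstream of the start site was examined because several of these genes are textbook examples of control by such elements. RefSeq promoter entries of build GRCm38.p6 matched 7 of the 10 members, with 9 entries since Txnrd1 has 3. Hmox1, Gclc and Gsr had no entry. The 250 bases before each listed start were searched on both strands for the core of the antioxidant response element in its C form, TGACNNNGC, and its G form, TGAGNNNGC. They were also searched for the AP-1 site TGAGTCA and for the amino acid response element TGATGCAA, which ATF4 binds. Of 32851 promoter windows of that length, 10.2% held the C form, 14.4% the G form, 4.46% the AP-1 site and 0.791% the amino acid response element. Shown here are the master regulator, the quinone reductase gene that fell with ampicillin, a gene with G-form and AP-1 matches, and the cystine transporter gene. They read 5′ to 3′ towards the gene, and capitals mark motif matches.

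Nfe2l2 (chr2:75704664-75704913, minus strand): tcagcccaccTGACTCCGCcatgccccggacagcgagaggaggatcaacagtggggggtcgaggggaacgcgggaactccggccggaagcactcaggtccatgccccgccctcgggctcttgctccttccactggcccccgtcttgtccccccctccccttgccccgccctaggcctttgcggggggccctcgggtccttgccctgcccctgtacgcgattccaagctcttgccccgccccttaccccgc
Nqo1 (chr8:107403206-107403455, minus strand): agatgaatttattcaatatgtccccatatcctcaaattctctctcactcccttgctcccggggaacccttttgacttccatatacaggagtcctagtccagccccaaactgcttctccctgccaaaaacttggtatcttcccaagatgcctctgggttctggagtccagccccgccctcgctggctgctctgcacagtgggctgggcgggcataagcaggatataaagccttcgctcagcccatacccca
Srxn1 (chr2:152105274-152105523, plus strand): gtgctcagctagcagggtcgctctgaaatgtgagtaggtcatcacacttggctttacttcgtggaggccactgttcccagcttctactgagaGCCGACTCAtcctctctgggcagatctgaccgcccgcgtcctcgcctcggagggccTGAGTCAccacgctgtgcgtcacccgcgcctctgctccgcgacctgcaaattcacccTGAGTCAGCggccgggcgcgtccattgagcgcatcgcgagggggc
Slc7a11 (chr3:50443614-50443863, minus strand): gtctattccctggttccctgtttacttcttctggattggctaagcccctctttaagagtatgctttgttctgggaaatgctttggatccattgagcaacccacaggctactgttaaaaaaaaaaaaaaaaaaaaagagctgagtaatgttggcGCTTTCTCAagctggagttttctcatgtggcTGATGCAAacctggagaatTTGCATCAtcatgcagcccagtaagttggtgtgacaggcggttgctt

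Nfe2l2 held the C form once, beginning 240 bases before the listed start. Srxn1 held the G form at 158 and 45 bases and the AP-1 site at 102 and 45 bases, the pair at 45 bases lying on the same letters. Slc7a11 held 2 amino acid response elements, at 66 and 47 bases, and the G form at 97 bases; its listed start lies inside the span of the whole gene. Gclm, not printed, held the C form at 134 bases, and 1 of the 3 Txnrd1 entries held it at 92 bases. No searched motif lay in the Nqo1 and Gpx2 windows, which says only that these letters are not in the 250 bases examined. A match is a description of the letters, and no binding was measured.

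**Figure D1:**
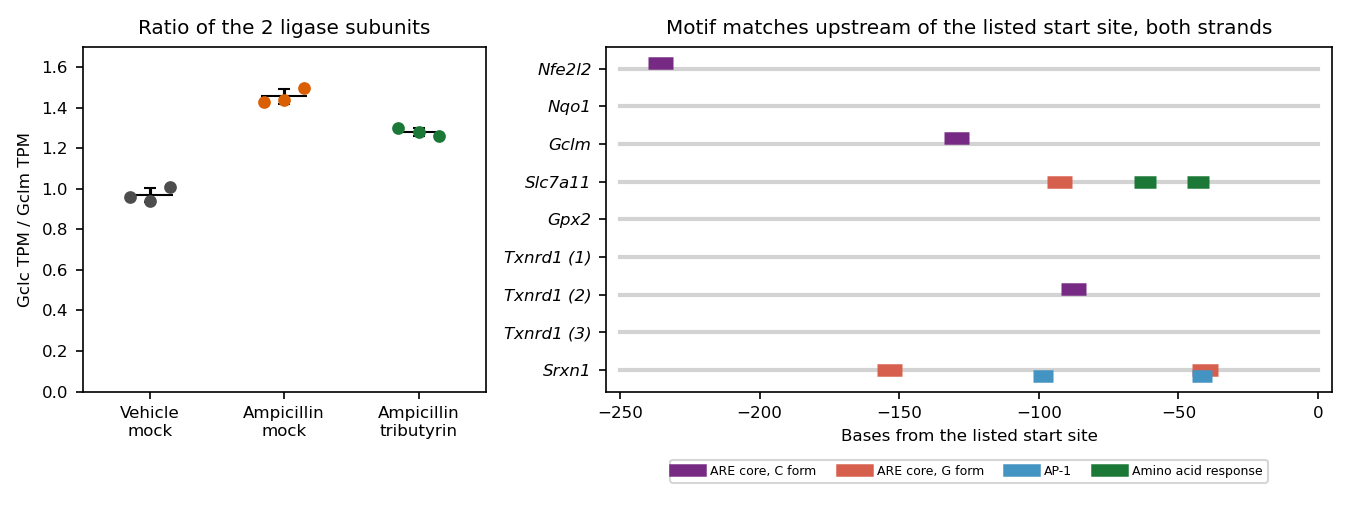
Left: Gclc TPM divided by Gclm TPM in each library (points), with mean (bar) and SD (whiskers) of 3 libraries per group; the ratio was 0.97 with vehicle, 1.46 with ampicillin and 1.28 with ampicillin and tributyrin. Right: motif matches (coloured blocks) in the 250 bases before each listed start site of 7 genes, x axis in bases, with entries numbered for Txnrd1; Srxn1 and Slc7a11 hold the most matches, and Nqo1, Gpx2 and 2 Txnrd1 entries hold none.

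Expression is given as TPM, a share of all transcripts that divides by transcript length and can be compared between genes, but keeps no record of sequencing depth. Library totals ran from 999833 to 999866. Log2 values correlated across genes at 0.976 to 0.981 within groups and 0.964 to 0.975 between groups. Caecal and colonic epithelial markers summed to 28295 to 31721 TPM in every library, so the labelled cell type was present. Car1 alone made up most of that sum, at 26033 to 29717 TPM, so the sum says little about the other markers. Transcripts of small intestinal enterocytes summed to 478 TPM in vehicle replicate 2, against 54.8 and 103 TPM in the other vehicle libraries and 30.3 to 45.4 TPM in the 6 ampicillin libraries. Leaving vehicle replicate 2 out changed no member's call against vehicle. Markers of Paneth cells summed to 2.42, 65.8 and 24.6 TPM in vehicle replicates 1 to 3, and to 0.472 to 0.763 TPM in the ampicillin libraries. All vehicle libraries thus lay above the ampicillin libraries in both sums, and this difference cannot be told apart from the treatment. Its part in the changes of the members was not tested. The enterocyte markers did not all fall with ampicillin: of 4 tested, 3 fell and 1 rose (10.2% and 11.0% of all genes). The one that rose was Apob, from 12.05 ± 2.66 to 25.14 ± 2.47 TPM. Fold changes are differences of log2(TPM + 1) ± SE from limma over all 9 libraries, a scale that understates the change of low genes. The threshold for a call was an adjusted p of 0.05 (Benjamini-Hochberg), taken over the 12155 genes whose mean reached 1 TPM. Of the members 9 were tested and 1, Slc7a11, lay below that minimum.

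The members did not move as a block. With ampicillin, Hmox1 (3.28-fold in TPM) and Gclc (1.62-fold) rose and Nqo1 fell to 0.621 of its vehicle level, while 6 tested members were not called. The 3 called of 9 stand beside 21.3% of all genes called in that comparison, 11.0% higher and 10.2% lower. At 6 h after tributyrin, ampicillin-treated mice had lower Hmox1 and higher Nqo1 than after mock gavage, the latter near the threshold, and 7 members were not called. In that comparison 23.2% of all genes were called, 15.6% higher and 7.54% lower. Against vehicle, the mice given both agents had higher Hmox1, Gclc, Nfe2l2 and Gclm and lower Nqo1, 5 of 9 members, beside 28.3% of all genes, 19.1% higher and 9.21% lower. Groups without overlap were found for 5 members higher and 1 lower with ampicillin (22.6% and 18.2% of all genes), 4 and 1 with tributyrin (27.3% and 15.3%) and 5 and 1 for both agents against vehicle (28.5% and 13.2%). The median member change was 0.11, 0.09 and 0.14 in the 3 comparisons, against 0.02, 0.05 and 0.08 over all genes tested. These comparisons share libraries pairwise and are not independent of each other.

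**Figure D2:**
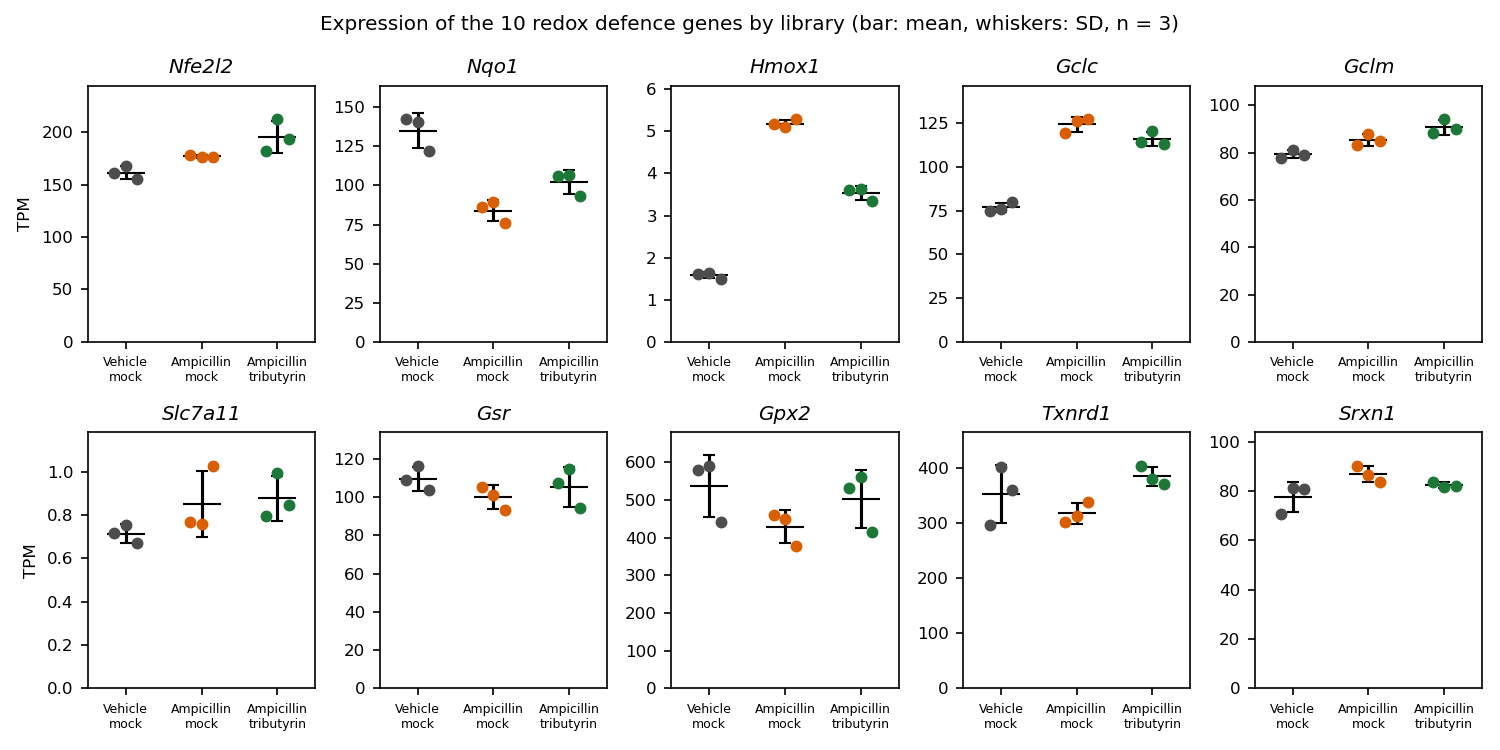
TPM (y axis, from 0, scaled to each gene) of the 10 members in each library (points) by group, with mean (bar) and SD (whiskers) of 3 libraries. Hmox1, Gclc, Nqo1, Nfe2l2, Gclm, Srxn1 and Slc7a11 separate vehicle from both ampicillin groups without overlap. Gpx2 and Gsr overlap in all 3 comparisons, and Slc7a11 stays near 1 TPM or below.

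The regulator Nfe2l2 (gene ID 18024, chromosome 2, 75675513 to 75704663) was among the more abundant members. Its level was 161.6, 167.6 and 155.8 TPM in vehicle replicates 1 to 3, 178.5, 176.6 and 176.3 TPM with ampicillin and 182.2, 212.5 and 193.5 TPM with ampicillin and tributyrin. The groups do not overlap in any of the 3 comparisons, and the steps are small. The log2 fold change was 0.13 ± 0.0593 with ampicillin (adjusted p = 0.157) and 0.14 ± 0.0593 with tributyrin among ampicillin libraries (adjusted p = 0.115), neither of them called. Between ampicillin with tributyrin and vehicle it was 0.27 ± 0.0593 (adjusted p = 0.0112), and that call held in all 20 alternatives. Groups without overlap made up 40.8%, 42.6% and 41.7% of all genes in the 3 comparisons, so separation alone was common.

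Nqo1 (gene ID 18104, chromosome 8, 107388225 to 107403205) encodes the quinone reductase that is the usual reporter of NRF2 activity. The vehicle libraries held 142.3, 140.8 and 122.2 TPM, the ampicillin libraries 86.39, 89.15 and 76.16 TPM and the tributyrin libraries 106.3, 106.9 and 93.38 TPM. Vehicle was highest, ampicillin with mock lowest, and tributyrin lay between them with no overlap. Nqo1 fell with ampicillin by a log2 fold change of -0.68 ± 0.0869 (adjusted p = 0.00102; -0.75 to -0.61 with 1 library left out at a time). With tributyrin it changed by 0.28 ± 0.0869 (adjusted p = 0.0477), a call lost in 11 of 20 alternatives. Leaving out any 1 of 7 libraries ended it: ampicillin replicate 1, 2 or 3 (adjusted p = 0.089, 0.0658 and 0.135), tributyrin replicate 1 or 2 (0.126 and 0.145) and vehicle replicate 1 or 2 (0.0574 and 0.057). After tributyrin it was still 0.757 of the vehicle level (log2 fold change -0.40 ± 0.0869, adjusted p = 0.0116).

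Hmox1 (gene ID 15368, chromosome 8, 75093618 to 75100593), which encodes the inducible haem oxygenase that opens the haem ring, was scarce and moved the other way. It stood at 1.605, 1.637 and 1.497 TPM with vehicle, 5.166, 5.106 and 5.284 TPM with ampicillin and 3.618, 3.633 and 3.34 TPM with tributyrin. The 3 groups are well apart and the libraries within each nearly equal. Hmox1 rose by 1.26 ± 0.0652 with ampicillin (adjusted p = 1.24e-05). It changed by -0.45 ± 0.0652 with tributyrin (adjusted p = 0.0025) and remained higher than with vehicle by 0.81 ± 0.0652 (adjusted p = 0.000161). All 3 calls held in the 19 alternatives in which Hmox1 was tested. Only 15.8% of tested genes had a lower mean level, against 88.2% for Nqo1.

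Macrophages that clear red cells express much Hmox1, so their markers were read beside it. Of 10 macrophage and myeloid markers 3 were tested, and their summed level was 45.9 to 58.6 TPM with vehicle, 19.6 to 26.3 TPM with ampicillin and 15.2 to 26.3 TPM with tributyrin. C1qa made up most of that sum, at 46.7 ± 7.1, 18.8 ± 2.06 and 15.6 ± 5.11 TPM. Adgre1 was listed at 0 in all libraries but tributyrin replicate 3 (0.01272 TPM), and Spic was listed at 0 in all 9. Csf1r, C1qb, C1qc and Cd163 had group means below 0.1 TPM. The other tested markers did not follow C1qa: Cd68 stood at 1.65 ± 0.392, 1.86 ± 0.174 and 2.22 ± 0.253 TPM and Lyz2 at 1.43 ± 0.209, 1.804 ± 1.27 and 1.65 ± 0.246 TPM, neither called in any comparison, and Itgam, below the minimum, had means of 0.337, 0.371 and 0.603 TPM. The median log2 fold change of the 3 tested markers with ampicillin was 0.12, and the part of such cells in the Hmox1 result was not tested. Erythroid markers summed to 13.4 to 36.6 TPM with ampicillin and 94.4 to 134 TPM with tributyrin, and T cell markers to 10.9 to 18.7 and 21.6 to 41.5 TPM; their part in the changes with tributyrin was not tested.

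Glutathione is made in 2 steps, and the first and rate-limiting one needs the catalytic subunit Gclc and the modifier subunit Gclm. Gclc (gene ID 14629, chromosome 9, 77754535 to 77794489) stood at 74.66, 76.25 and 79.99 TPM with vehicle, 119.3, 126.5 and 127.3 TPM with ampicillin and 114.6, 120.7 and 113.1 TPM with tributyrin. Both ampicillin groups lie above vehicle, and they overlap with each other. It rose by 0.69 ± 0.0484 with ampicillin (adjusted p = 5.11e-05), changed by -0.10 ± 0.0484 with tributyrin (adjusted p = 0.175) and was higher than with vehicle by 0.59 ± 0.0484 (adjusted p = 0.000181). In the tributyrin comparison, median of ratios scaling made the change a call (-0.15, adjusted p = 0.0341).

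Gclm (gene ID 14630, chromosome 3, 122245487 to 122267215) moved less. The vehicle libraries gave 77.77, 81.13 and 79.12 TPM, the ampicillin libraries 83.13, 88.01 and 85.13 TPM and the tributyrin libraries 88.16, 94.11 and 89.83 TPM. Each group lies above the one before without overlap. The change of 0.11 ± 0.044 with ampicillin was not called (adjusted p = 0.13), nor was that of 0.09 ± 0.044 with tributyrin (adjusted p = 0.192). The change of 0.19 ± 0.044 from vehicle to ampicillin with tributyrin was called (adjusted p = 0.0143), and was not without tributyrin replicate 2 (adjusted p = 0.0526) or with median of ratios scaling (adjusted p = 0.0961). The ratio of Gclc to Gclm TPM was 0.96, 0.94 and 1.01 with vehicle, 1.43, 1.44 and 1.5 with ampicillin and 1.3, 1.28 and 1.26 with tributyrin. The 3 groups do not overlap in this ratio, which was not tested.

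Slc7a11 (gene ID 26570, chromosome 3, 50364936 to 50499087), the light chain of the cystine importer and a target of both NRF2 and ATF4, was barely detected. Its values were 0.7148, 0.7547 and 0.6686 TPM with vehicle, 0.768, 0.7597 and 1.026 TPM with ampicillin and 0.7941, 0.994 and 0.8449 TPM with tributyrin. With no minimum level it was not called in any comparison (adjusted p = 0.382 with ampicillin, 0.884 with tributyrin and 0.229 for both against vehicle). Gsr (gene ID 14782, chromosome 8, 33653238 to 33698162), the reductase that restores glutathione, stood at 108.8, 116.3 and 103.8 TPM with vehicle. The ampicillin libraries held 105.5, 101.2 and 93.42 TPM and the tributyrin libraries 107.6, 114.6 and 94.04 TPM of Gsr. These ranges overlap throughout, and the log2 fold changes of -0.13, 0.07 and -0.06 (SE 0.0817) were not called (adjusted p = 0.303, 0.561 and 0.616).

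Gpx2 (gene ID 14776, chromosome 12, 76792335 to 76795554), the gastrointestinal glutathione peroxidase, was the most abundant member. It stood at 578.6, 590.4 and 440.9 TPM with vehicle, 460.6, 448.8 and 378.5 TPM with ampicillin and 532.1, 561.7 and 415.3 TPM with tributyrin. One library in each group, numbered 3 in the labels, lies well below the other 2, and the groups overlap. The changes of -0.31 ± 0.148 with ampicillin (adjusted p = 0.174), 0.22 ± 0.148 with tributyrin (adjusted p = 0.312) and -0.09 ± 0.148 for both against vehicle (adjusted p = 0.666) were not called. Its relative Gpx1, the ubiquitous cytosolic form, rose in each comparison, at 338 ± 6.18, 377 ± 10.1 and 424 ± 20.3 TPM in the 3 groups. The log2 fold changes were 0.16, 0.17 and 0.32 (limma adjusted p = 0.0483, 0.0354 and 0.00216), the first near the threshold. Gpx4, a further tested peroxidase, rose with ampicillin by 0.28 ± 0.0688 (limma adjusted p = 0.0211). It was not called with tributyrin (-0.13, adjusted p = 0.207) or for both against vehicle (0.15, adjusted p = 0.135).

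Txnrd1 (gene ID 50493, chromosome 10, 82833951 to 82897724), the cytosolic thioredoxin reductase, was the second most abundant. Its levels were 296.6, 401.1 and 358.8 TPM with vehicle, 300.9, 313.1 and 338.3 TPM with ampicillin and 403.2, 379.1 and 370.8 TPM with tributyrin. The vehicle libraries spread across both other groups, which do not overlap with each other. The change of 0.28 ± 0.102 with tributyrin was not called (adjusted p = 0.084). It was called without vehicle replicate 1 (adjusted p = 0.0242) or 2 (0.0454), with only the 2 groups in the fit (0.0247) and with array weights (0.0246). With ampicillin the change was -0.14 ± 0.102 (adjusted p = 0.385), and for both agents against vehicle 0.14 ± 0.102 (adjusted p = 0.349).

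Srxn1 (gene ID 76650, chromosome 2, 152105524 to 152111376) encodes sulfiredoxin, which rescues overoxidized peroxiredoxins. Vehicle libraries gave 70.85, 81.48 and 80.69 TPM, ampicillin libraries 90.27, 86.69 and 83.67 TPM and tributyrin libraries 83.75, 81.8 and 81.96 TPM. The ampicillin libraries lie above vehicle without overlap, the nearest pair being 83.67 and 81.48 TPM. None of its changes was called, at 0.16 ± 0.0601 with ampicillin (adjusted p = 0.094), -0.07 with tributyrin (adjusted p = 0.414) and 0.09 for both against vehicle (adjusted p = 0.3).

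**Figure D3:**
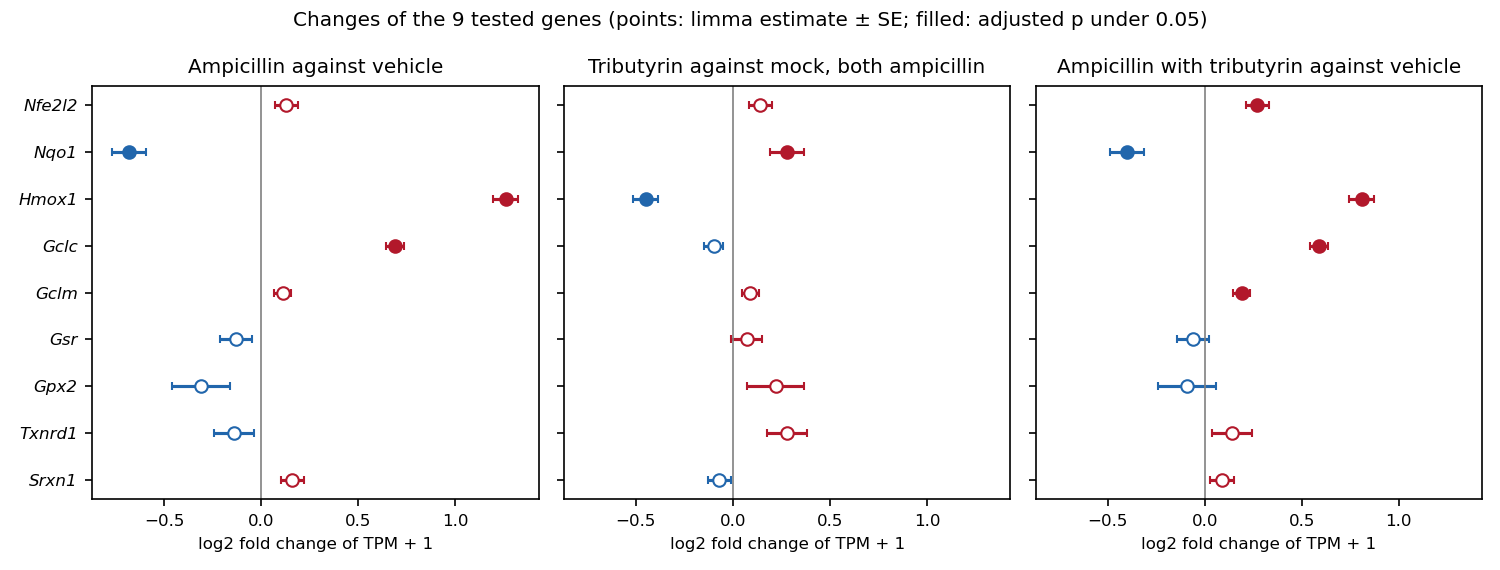
Log2 fold change of TPM + 1 (x axis) with SE for the 9 tested members in the 3 comparisons; filled points have an adjusted p under 0.05 from limma, red is higher and blue lower. Hmox1 and Gclc lie furthest right and Nqo1 furthest left in the first panel, and Hmox1 lies left of 0 in the second.

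The rest of the pathway was read from lists, beside ATF4, aryl hydrocarbon receptor and selenoprotein synthesis genes, which are not all NRF2 targets. Members were left out of the counts that follow. Over the 85 genes of all these lists, 18 rose and 20 fell with ampicillin, where 11.0% and 10.2% of all genes did. The 7 tested ATF4 genes gave 5 of these rises and 1 of the falls. With tributyrin 24 rose and 7 fell (15.6% and 7.54% of all genes), and 27 were higher and 13 lower with both agents than with vehicle (19.1% and 9.21%). Among 9 tested regulators, 2 rose with ampicillin and 0 fell. Both are small MAF genes, Maff from 18.2 ± 2.01 to 30.3 ± 1.59 TPM and Mafk from 32.9 ± 1.64 to 43.0 ± 2.97 TPM. Tributyrin lowered Maff to 22.3 ± 1.88 TPM and Mafg from 20.1 ± 1.55 to 15.6 ± 0.652 TPM, and raised 0 regulators. Keap1, the NRF2 inhibitor, stood at 36.5 ± 0.44, 34.8 ± 1.36 and 31.5 ± 1.78 TPM and was lower only for ampicillin with tributyrin against vehicle (-0.21 ± 0.0529, adjusted p = 0.0208); the difference between comparisons was not tested. Bach1, the repressor of Hmox1, at 8.41, 8.87 and 7.46 TPM, and Sqstm1, which binds KEAP1, at 165, 165 and 175 TPM, were not called in any comparison.

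Of 19 other genes commonly cited as NRF2 targets, 12 fell and 2 rose with ampicillin (10.2% and 11.0% of all genes). The median log2 fold change of the 19 was -0.44 against 0.02 over all genes. This list, as the others, was chosen with earlier results of these data known. The glutathione S-transferase gene Gsta3 went from 27.1 ± 4.93 to 9.47 ± 2.62 TPM and the carboxylesterase gene Ces1g from 348 ± 47.8 to 156 ± 16.1 TPM. Gstm3, Cbr3 and Pir, chosen after their values were seen, fell from 208 to 96.1, from 133 to 61.4 and from 10.8 to 5.76 TPM. Aldh1a1, a retinaldehyde dehydrogenase, was an exception, at 323 ± 4.67 and 800 ± 63.5 TPM (log2 fold change 1.30 ± 0.0685, adjusted p = 1.24e-05). The count of lower genes was 8 without vehicle replicate 1 and 12 without vehicle replicate 2. General epithelial markers were also lower in these libraries, 7 of 8 with a median of -0.32, while 2 of 7 caecal and colonic markers fell; their part in the result was not tested. In bulk RNA, fewer cells of a type and less RNA per cell cannot be told apart.

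Tributyrin raised 10 of the same 19 genes and lowered 2 (15.6% and 7.54% of all genes). The median log2 fold change of the 19 was 0.45 against 0.05 over all genes. Akr1b8, an aldo-keto reductase, went from 37.4 ± 6.74 to 96.3 ± 5.56 TPM. The exporter gene Abcc4 rose from 1.90 ± 0.338 to 5.22 ± 0.811 TPM and Gsta4 from 65.0 ± 5.96 to 136 ± 26.1 TPM. Aldh1a1 fell to 643 ± 43.2 TPM. Set against vehicle, mice given both agents had 5 of the 19 higher and 5 lower (19.1% and 9.21% of all genes). Ces1g was still at 188 ± 11.1 TPM. The first 2 comparisons share the ampicillin libraries with mock gavage, so high or low values there move both in opposite ways. Gsta, Gstm, Akr1b, Ces1 and Aldh1a genes have close relatives, and the division of reads between them is uncertain.

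**Figure D4:**
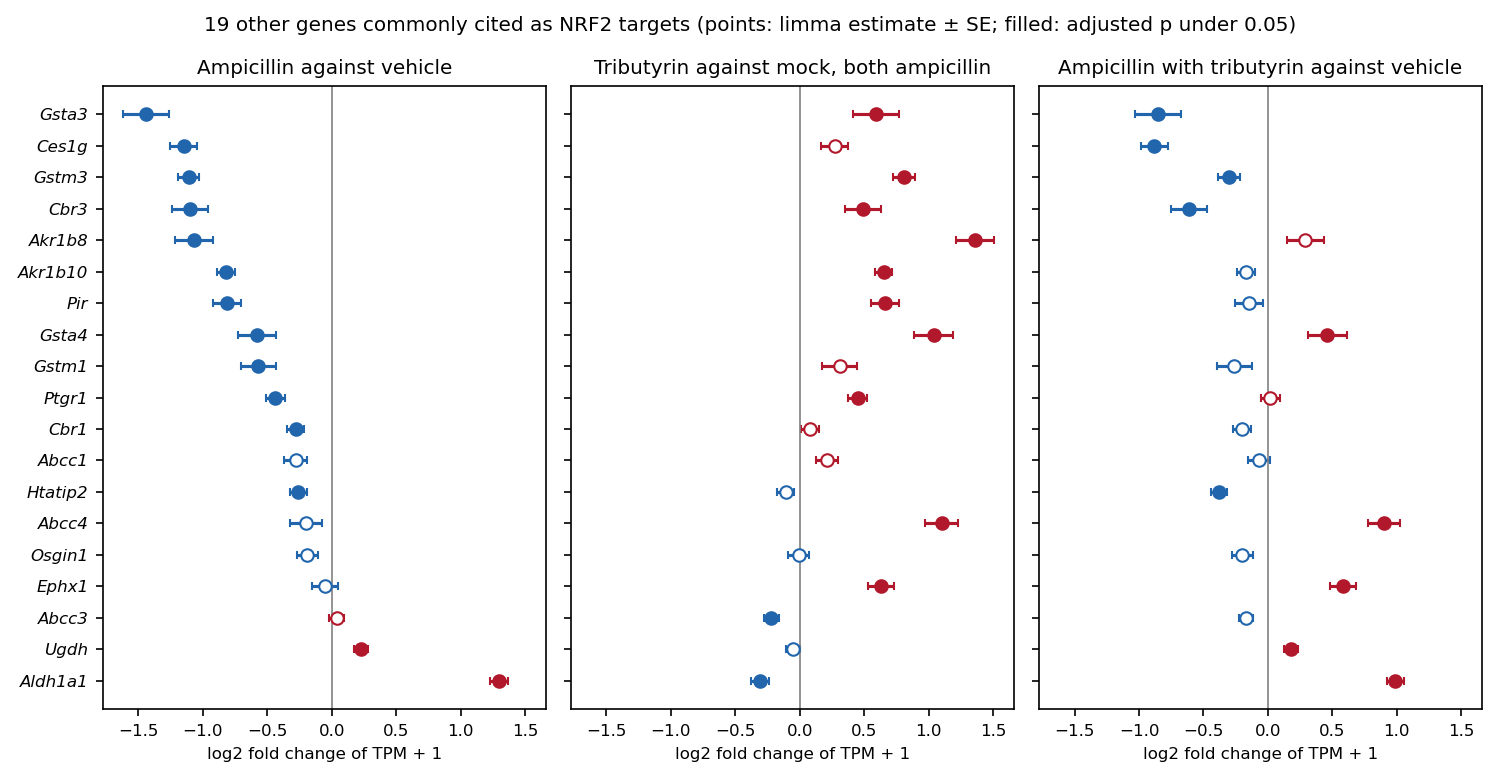
Log2 fold change of TPM + 1 (x axis) with SE for 19 other genes commonly cited as NRF2 targets in the 3 comparisons; filled points have an adjusted p under 0.05 from limma, red is higher and blue lower. With ampicillin 12 filled points lie left of 0 and 2 right of it; with tributyrin 10 lie right and 2 left.

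Among 9 other genes of glutathione synthesis and recycling, 3 rose and 1 fell with ampicillin (11.0% and 10.2% of all genes). Glrx, glutaredoxin, went from 122.5 ± 15.2 to 181 ± 11.9 TPM, and Oplah, which returns oxoproline to glutamate, from 12.7 ± 0.693 to 17.9 ± 0.845 TPM. The member of the list that fell, Ggt1, breaks down extracellular glutathione. It stood at 5.827, 13.12 and 7.46 TPM with vehicle and 0.1392, 0.2704 and 0.2251 TPM with ampicillin (-2.95 ± 0.229, adjusted p = 8.5e-05). Its highest value was in vehicle replicate 2, the library with the most small intestinal transcripts. Those transcripts summed to 54.8, 478 and 103 TPM in vehicle replicates 1 to 3, which is the same order as Ggt1. Their part in the fall of Ggt1 was not tested. Chac1, a glutathione-degrading ATF4 target below the minimum level, had means of 0.345, 1.08 and 0.65 TPM. With tributyrin only Ggct of this list was called, from 3.999 ± 0.63 to 5.90 ± 0.705 TPM.

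Of 11 other genes of the thioredoxin and peroxiredoxin system, 1 rose and 1 fell with ampicillin, near the shares over all genes (11.0% and 10.2%). Prdx6 stood at 1740, 1789 and 2427 TPM with vehicle and 850.6, 949.5 and 983.4 TPM with ampicillin, a change of -1.08 ± 0.146 (adjusted p = 0.00131). Tributyrin raised 3 and lowered 1 (15.6% and 7.54% of all genes). The peroxiredoxin gene Prdx1 went from 497 ± 33.5 to 726 ± 57.5 TPM and Prdx4, of the endoplasmic reticulum, from 32.8 ± 0.969 to 43.2 ± 2.11 TPM. Txnrd3, a reductase related to Txnrd1, fell from 7.71 ± 0.275 to 4.30 ± 0.311 TPM. Txn1, the thioredoxin that Txnrd1 reduces, was not called in any comparison, at 1495, 1550 and 1527 TPM.

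Haem and quinone genes beside Hmox1 and Nqo1 numbered 7, of which 1 rose and 1 fell in each of the first 2 comparisons. Over all genes 11.0% rose and 10.2% fell with ampicillin, and 15.6% rose and 7.54% fell with tributyrin. Blvrb, a biliverdin and flavin reductase, stood at 77.2 ± 7.53 TPM with vehicle, 43.0 ± 2.14 TPM with ampicillin and 76.1 ± 5.58 TPM with tributyrin. It fell by 0.83 ± 0.083 on the log2 scale (adjusted p = 0.000298) and rose by 0.81 ± 0.083 (adjusted p = 0.000686). The ferritin light chain gene Ftl1 rose with ampicillin from 3101 ± 183 to 3555 ± 117 TPM. Of 4 superoxide dismutase and catalase genes, Sod2 rose with ampicillin and Ccs, the copper chaperone of SOD1, fell from 163 ± 14.8 to 116 ± 3.15 TPM and was 159 ± 16.3 TPM after tributyrin.

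NADPH feeds both reductases, Gsr and Txnrd1. Of 8 genes of its supply, 0 rose and 2 fell with ampicillin (11.0% and 10.2% of all genes). Me1, malic enzyme, went from 8.19 ± 0.96 to 3.85 ± 0.129 TPM and Rpia from 48.6 ± 0.143 to 39.4 ± 0.82 TPM. Tributyrin raised 3 and lowered 0 (15.6% and 7.54% of all genes). Among those raised was G6pdx, the entry enzyme of the pentose phosphate pathway, from 60.9 ± 4.96 to 77.1 ± 7.94 TPM. Gpx2 and Txnrd1 are selenoproteins. Of 7 genes that serve selenoprotein synthesis, 1 rose and 1 fell with ampicillin (11.0% and 10.2% of all genes). With tributyrin 2 rose and 0 fell (15.6% and 7.54%). Sephs2, which makes selenophosphate, rose in each comparison, at 106 ± 6.69, 132 ± 2.09 and 172 ± 21.8 TPM. Trnau1ap fell with ampicillin from 40.9 ± 0.78 to 33.6 ± 0.793 TPM, and Eefsec rose with tributyrin from 10.77 ± 0.936 to 14.29 ± 1.4 TPM.

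Pathways that share targets with NRF2 were read in the same way. Of 7 tested ATF4 genes, 5 rose and 1 fell with ampicillin (11.0% and 10.2% of all genes), while Slc7a11 stayed near 1 TPM or below. Ddit3 went from 22.6 ± 2.32 to 40.8 ± 1.4 TPM and Asns from 12.9 ± 0.544 to 22.4 ± 1.3 TPM. With tributyrin 2 rose and 1 fell (15.6% and 7.54% of all genes). Phgdh, of serine synthesis, went from 17.3 ± 0.963 to 34.8 ± 2.15 TPM. Nqo1 is also a target of the aryl hydrocarbon receptor, and of 6 genes listed for that pathway 2 were tested, the receptor gene Ahr and its target Tiparp. Ahr stood at 3.22 ± 0.121, 3.94 ± 0.311 and 4.21 ± 0.339 TPM and Tiparp at 5.12 ± 0.7, 6.35 ± 0.242 and 6.44 ± 0.344 TPM, both above vehicle without overlap in each ampicillin group. Neither was called with ampicillin (limma adjusted p = 0.0734 and 0.0606) or with tributyrin (0.509 and 0.916), and both were higher with both agents than with vehicle (0.0213 and 0.0401). Cyp1a1, the receptor's best-known target, was listed at 0 in all vehicle libraries and ampicillin libraries with mock gavage. With tributyrin it was barely above 0, at 0.01533, 0.01203 and 0.01557 TPM.

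Likeness of pattern was measured for the 3 members whose group means differed most, as the root mean square difference between genes scaled to mean 0 and SD 1 over 9 libraries. The closest genes to Hmox1 were Tbc1d9 (0.085), Cyp2d26 (0.105) and the glycolytic enzyme gene Aldoa (0.123). Tbc1d9 stood at 0.665 ± 0.0242, 3.70 ± 0.151 and 2.30 ± 0.3 TPM in the 3 groups. Those closest to Gclc were Mroh1 (0.140), Cyp2d34 (0.149) and Pfkfb4 (0.161), a gene of glycolytic control. Mroh1 stood at 16.3 ± 0.609, 21.3 ± 0.179 and 20.8 ± 0.726 TPM and Cyp2d34 at 6.96 ± 0.758, 102 ± 10 and 83.3 ± 6.26 TPM. Because genes are scaled, the measure compares the pattern and not the size of the changes. The closest to Nqo1 were Dap (0.127), Sh3d21 (0.190) and Kazn (0.197), with Dap at 56.5 ± 3.82, 38.3 ± 2.66 and 44.6 ± 4.69 TPM.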

How the data were processed

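RNA libraries of 3 groups of 3 were used, and 7 chromatin libraries were not analysed here. Cells were released with DTT, EDTA and Dispase and libraries made with NEBNext Ultra II, per the labels' protocols. The authors deposited TPM per gene, and the submitters' processing notes name Salmon 0.8.2, DESeq2 1.20.0 and build mm10. No source used here gives the annotation or strand setting. TPM keeps no read depth, so no count test was run and counting error is unknown. Of 24091 gene IDs 24045 matched RefSeq. Values were analysed as log2(TPM + 1) in limma 3.58.1 (R 4.3.3) with 1 mean per group and a variance trend, after tests on simulated data, with Benjamini-Hochberg adjustment over 12155 genes with a mean of at least 1 TPM. The 10 members and the lists were chosen with earlier results of these data known. Beside members, up to 3 called genes per pathway list and comparison are named by size of change, with Keap1, Bach1, Sqstm1, Txnip, Gpx1, Gpx4, Txn1, Prdx1 and Chac1 allowed throughout. Gstm3, Cbr3, Pir and Cyp1a1 were named outside this rule. Alternatives changed the pseudocount, minimum, scaling, groups fitted, replicate block, variance trend and weights, and left out each library. The counts of other NRF2 targets under these were added after seeing the data.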

Additional observations from a re-analysis of the deposited data

How the results depend on the processing

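Of the member values under alternatives, 516 kept their direction and side of the threshold, 13 lost a call, 7 gained one and 4 changed sign. The sign changes were in uncalled differences between ampicillin with tributyrin and vehicle. Gsr moved from -0.06 to 0.02 with array weights and Gpx2 from -0.09 to 0.08. With 1 library left out Gsr ran from -0.12 to 0.02 and Gpx2 from -0.23 to 0.04, the highest of each being without tributyrin replicate 3. The count of members called with tributyrin, 2, was 1 with no minimum, with a minimum mean of 5 TPM (where Hmox1 was not tested) and with no variance trend, and 1 to 2 with 1 library left out. List genes called with tributyrin numbered 33, and 18 to 32 with 1 library left out, 18 being without tributyrin replicate 2. Scaling shifted the share of calls that were higher, over all genes, from 67.5% to 47.1% (quantile) or 50% (median of ratios) with tributyrin, and from 67.5% to 50.3% or 47.1% against vehicle. Deviations from the group mean correlated across genes at -0.050 to 0.108 between same-numbered libraries and at -0.117 to 0.075 between the others. These low values cannot decide whether same-numbered libraries are paired, and no label ties the numbers to a batch or animal. With the replicate block 4, 3 and 5 members were called instead of 3, 2 and 5, Gpx2 being added at -0.31 with ampicillin (limma adjusted p = 0.00501) and 0.22 with tributyrin (adjusted p = 0.018).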
